A study of Mus musculus with 72 samples.

Results

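The libraries described here are those of misaligned female mice whose livers were taken at 04:00 or at 16:00. They number 6 of the 72 libraries of the series, 3 at each clock time, and were chosen by the sex, treatment and clock time in their labels. No measured value entered the choice. All 72 mice were wild type C57bl6 animals, 8 to 16 weeks old, kept on 12 h of light and 12 h of darkness with free access to food. Every mouse, controls included, went from chow to high-fat food, in which fat supplied 42% of the calories, when its control or misalignment schedule began. The labels name chronic circadian misalignment without describing the schedule, and they do not say when the lights were on at collection, so 04:00 and 16:00 are clock times as stated. Control females at the same clock times (6 libraries) and misaligned males at the same clock times (6 libraries) serve for comparison. The series sampled 3 mice per sex and treatment at 0, 4, 8, 12, 16 and 20 h, and each mouse was taken once. Poly(A) RNA of whole liver was sequenced with a stranded kit in read pairs of 150 bases.

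The liver clock is a loop of transcription factors. BMAL1, the product of Arntl, pairs with CLOCK or NPAS2 and activates genes through E-boxes, among them the Period and Cryptochrome genes, whose products block the pair. The REV-ERB receptors, made from Nr1d1 and Nr1d2, repress Arntl at ROR elements that the ROR receptors activate, and the PAR bZIP factors DBP, TEF and HLF activate genes at D-boxes that NFIL3 represses. In liver this loop responds to feeding as well as to light and drives daily rhythms of many metabolic genes.

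The 6 libraries held 11600915 to 12151869 counts each, with at least 1 count for 18284 to 18614 genes, and 14522 of the 27846 genes in the table were tested. Xist had 3047 to 3930 counts in each of the 6 libraries and Ddx3y had 0, as the female label requires. All 12 hepatocyte markers were detected, and their summed level was 110600 to 130500 CPM, counts scaled to library size, at 04:00 and 118200 to 147800 at 16:00. The summed levels of the lists for Kupffer cells, endothelium, stellate cells, cholangiocytes, lymphocytes, neutrophils, and erythrocytes with platelets overlapped between the clock times. The erythrocyte and platelet sum was uneven among livers, at 588, 88.9 and 632 CPM at 04:00 and 602, 78.8 and 121 CPM at 16:00. All 6 cholangiocyte, 9 of 10 stellate and 1 of 10 erythrocyte and platelet markers were higher at 16:00 in the fit. In the test described below, 0 of them passed. Of 7 adipocyte and pancreas markers in the table, Plin1, Lep, Prss2 and Cpa1 were at 0 in all 6 libraries, and the summed level was 7.04 to 7.91 CPM at 04:00 and 7.05 to 8.58 CPM at 16:00. In bulk liver, fewer cells of a type and less RNA per cell cannot be told apart. The first principal component of the 6 libraries took 32.9% of the variance and separated the clock times, and the second, with 21.9%, set replicate 2 at 04:00 apart from the other 5.

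Between 04:00 and 16:00, 182 genes changed in misaligned female liver, 1.25% of those tested. Of these, 96 were higher at 16:00 (0.661% of the genes tested) and 86 were lower (0.592%). Core clock genes were among the largest changes in both directions, with Arntl, Npas2 and Cry1 high at 16:00 and Dbp, Nr1d1 and Nr1d2 high at 04:00. A change of 2-fold or more was seen in 51 of the higher and 39 of the lower genes. The 3 values at one clock time lay wholly apart from the 3 at the other in 179 of the 182 genes, and in 2355 of all 14522 tested (16.2%). Genes were called by the quasi-likelihood test of edgeR at a Benjamini-Hochberg adjusted p under 0.05, and 1550 genes had an unadjusted p under 0.05. The number called was 103, 72 and 131 without replicate 1, 2 or 3 at 04:00 and 91, 103 and 115 without replicate 1, 2 or 3 at 16:00, and it was 95 when the 6 libraries were fitted alone.

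The 5 lists of clock genes hold 22 members. Of these, 21 were tested, Rorb being the exception, and 6 rose and 7 fell between 04:00 and 16:00. The share called was 61.9%, against 1.25% of all tested genes, and the lists were drawn up with earlier results of these data known. All 3 activators were higher at 16:00. Arntl (ENSMUSG00000055116, chr7:113207465-113314126 in GRCm38) was at 3.06, 3.99 and 1.70 CPM at 04:00 and at 31.6, 44.3 and 32.1 CPM at 16:00. The 2 groups were far apart, with means that differed 12.3-fold and a log2 difference of 3.62 ± 0.43 (± standard error, n = 3 against 3, adjusted p = 1.08e-05). Npas2 (ENSMUSG00000026077, chr1:39193731-39363236), the partner that can stand in for CLOCK, was at 1.24, 0.958 and 0.848 CPM at 04:00 and at 17.4, 15.9 and 17.4 CPM at 16:00. Its 16:00 livers were all above its 04:00 livers, by 16.6-fold in the mean (log2 difference 4.04 ± 0.40, adjusted p = 2.80e-07). Clock itself moved less, from 19.7, 18.1 and 18.7 CPM to 25.8, 32.6 and 35.2 CPM, again without overlap (log2 difference 0.73 ± 0.14, adjusted p = 0.00325). Fitted on the 6 compared libraries alone, Clock was not called (adjusted p over the alternatives 1.39e-04 to 0.0528).

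**Figure D1:**
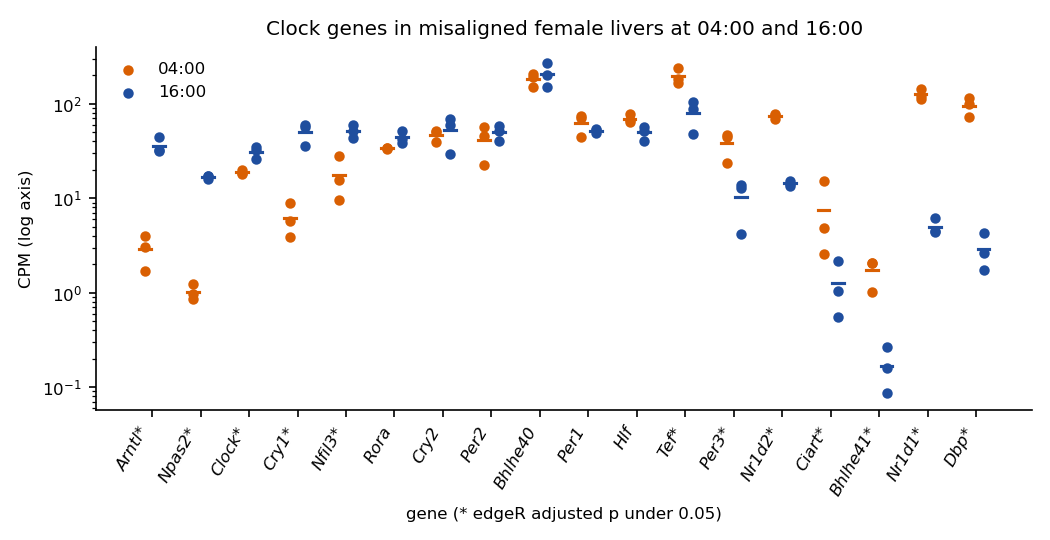
Clock genes in misaligned female livers at 04:00 (orange) and 16:00 (blue). Each point is 1 liver in CPM on a log axis, each bar the mean of 3, and an asterisk marks an adjusted p under 0.05; Arntl, Npas2 and Cry1 are high at 16:00 on the left, Nr1d1 and Dbp are high at 04:00 on the right, and Per1, Per2, Cry2 and Bhlhe40 in the middle overlap.

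Among the receptors that act on Arntl, both REV-ERB genes fell. Nr1d1 (ENSMUSG00000020889, chr11:98767932-98775333), which encodes REV-ERB alpha, was at 122, 144 and 111 CPM at 04:00 and at 4.38, 4.47 and 6.18 CPM at 16:00. Its level was thus 25.1-fold higher at 04:00 in the mean, with a log2 difference of -4.64 ± 0.61 (adjusted p = 6.66e-05). Nr1d2, for REV-ERB beta, went from 68.3, 77.7 and 75.5 CPM to 14.2, 15.2 and 13.6 CPM, and the 3 livers of each clock time lay close together (log2 difference -2.36 ± 0.26, adjusted p = 1.87e-06). Rora, for ROR alpha, did not pass the test, at 33.1, 34.1 and 33.8 CPM and 42.5, 52.0 and 38.2 CPM, although its groups did not overlap (log2 difference 0.39 ± 0.18, adjusted p = 0.401).

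The repressors of the loop did not move as a group. Cry1 (ENSMUSG00000020038, chr10:85131700-85185064), the cryptochrome that peaks late in the cycle, was at 3.89, 5.75 and 8.99 CPM at 04:00 and at 56.2, 59.7 and 35.5 CPM at 16:00, 8.13-fold higher in the mean (log2 difference 3.02 ± 0.37, adjusted p = 1.41e-05). Per3 moved the other way, from 23.8, 46.8 and 44.5 CPM to 13.7, 12.9 and 4.201 CPM, with no overlap (log2 difference -1.91 ± 0.34, adjusted p = 0.00267). Per1, Per2 and Cry2 did not pass, and their 04:00 and 16:00 values overlapped. Per1 was at 44.1, 75.0 and 70.5 CPM and 52.2, 54.4 and 48.7 CPM (adjusted p = 0.89), Per2 at 22.6, 45.3 and 57.1 CPM and 51.4, 58.3 and 40.3 CPM (adjusted p = 0.901). Cry2 was at 51.5, 49.7 and 39.4 CPM and 60.2, 69.4 and 29.7 CPM (adjusted p = 0.824). Of the other repressors, Ciart, which encodes CHRONO, a binder of BMAL1, fell from 2.57, 4.87 and 15.1 CPM to 1.03, 2.19 and 0.555 CPM (log2 difference -2.58 ± 0.58, adjusted p = 0.0192). Bhlhe41, for DEC2, a repressor that competes for E-boxes, was low throughout, at 2.07, 2.08 and 1.02 CPM and 0.0859, 0.263 and 0.159 CPM (log2 difference -3.28 ± 0.73, adjusted p = 0.0168). Both calls depended on single libraries: Ciart was not called without replicate 3 at 04:00 or without replicate 1 or 3 at 16:00, and Bhlhe41 was not called without replicate 1 or 2 at 04:00 or without replicate 1 or 3 at 16:00. Over the alternatives the adjusted p ran from 5.52e-04 to 0.33 for Ciart and from 0.00544 to 0.131 for Bhlhe41. The log2 difference of Ciart was -1.57 without replicate 3 at 04:00 and -3.24 without replicate 2 at 16:00. Per3 was not called on the 6 libraries alone (adjusted p over the alternatives 8.17e-06 to 0.248). Bhlhe40, Rere and Timeless had log2 differences of 0.16 ± 0.36, -0.09 ± 0.14 and -0.22 ± 0.34 and did not pass.

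Of all 14522 genes tested, the D-box factor Dbp had the lowest log2 difference. Dbp (ENSMUSG00000059824, chr7:45705088-45710203) was at 73.0, 116 and 98.2 CPM at 04:00 and at 4.30, 2.63 and 1.74 CPM at 16:00, 33.1-fold higher at 04:00 in the mean (log2 difference -5.05 ± 0.55, adjusted p = 3.60e-06). Tef, a PAR bZIP factor of the same family, fell from 166, 181 and 240.0 CPM to 87.6, 104 and 47.9 CPM (log2 difference -1.29 ± 0.19, adjusted p = 1.46e-04). Every 16:00 liver was below every 04:00 liver for both genes, though Tef was not called on the 6 libraries alone (adjusted p over the alternatives 5.38e-08 to 0.126). Hlf, the remaining member, was at 64.8, 67.0 and 77.0 CPM and 51.3, 40.6 and 57.4 CPM and did not pass (log2 difference -0.48 ± 0.16, adjusted p = 0.181). Nfil3, the repressor at the same sites, rose from 27.7, 9.50 and 15.7 CPM to 51.0, 59.2 and 43.5 CPM (log2 difference 1.54 ± 0.33, adjusted p = 0.0136). The call for Nfil3 was lost without replicate 2 or 3 at 04:00 or without replicate 2 at 16:00 (adjusted p over the alternatives 3.02e-04 to 0.18). Antisense counts at the 20 of these genes in the antisense table were 0 to 2 per library except at Timeless, which had 7, 8 and 8 antisense counts at 04:00 and 14, 17 and 6 at 16:00.

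The start sites of 18 of these 21 genes had a RefSeq promoter window (GRCm38.p6), 250 bases before the start to 50 bases after it. The windows were searched on both strands for the E-box CACGTG, the D-box TTANGTAA and the core ROR element TAGGTCA, which are the sites of the 3 groups of factors above. Of the 13 clock genes that changed, 12 had a window and 7 held at least 1 of these motifs. Of the 6 clock genes with a window that were not called, 2 held one, Per1 an E-box and Timeless a D-box. For the 7 changed genes the stretches that carry the motifs are shown 5′ to 3′ with the motif in capitals, to show where the motifs lie in the genes that changed.
Arntl, chr7:113207531-113207557 (+): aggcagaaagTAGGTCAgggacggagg
Nfil3, chr13:52981040-52981081 (-): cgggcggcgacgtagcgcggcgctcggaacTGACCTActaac
Cry1, chr10:85185079-85185144 (-): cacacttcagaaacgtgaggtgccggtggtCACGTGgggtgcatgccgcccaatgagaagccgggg
Tef, chr15:81802516-81802581 (+): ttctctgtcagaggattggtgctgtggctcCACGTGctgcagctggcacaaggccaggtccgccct
Ciart, chr3:95882237-95882374 (-): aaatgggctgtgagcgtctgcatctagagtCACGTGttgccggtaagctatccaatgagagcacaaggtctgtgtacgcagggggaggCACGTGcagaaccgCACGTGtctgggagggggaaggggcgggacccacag
Bhlhe41, chr6:145865538-145865603 (-): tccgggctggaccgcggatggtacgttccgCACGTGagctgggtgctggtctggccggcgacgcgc
Per3, chr4:151044786-151044900 (-): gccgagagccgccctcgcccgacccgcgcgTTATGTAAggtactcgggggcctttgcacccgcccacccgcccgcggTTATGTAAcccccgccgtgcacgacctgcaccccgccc
The capitals of Arntl and Nfil3, which were higher at 16:00, are core ROR elements, 31 bases after the start in Arntl and 12 before it, on the opposite strand, in Nfil3. Ciart held 3 E-boxes, 116, 58 and 44 bases before its start, while Cry1, Tef and Bhlhe41 held 1 each, 60, 127 and 153 bases before theirs. Cry1 was higher at 16:00 and Tef, Ciart and Bhlhe41 were lower, so the genes with an E-box did not share a direction. Per3 held 2 D-boxes, 205 and 158 bases before its start. Among all 32851 promoter windows, 7.15% held the E-box, 2.32% the D-box and 2.61% the core ROR element. Of the 72 higher genes with a window, 11 held an E-box (15.3%), as did 11 of 67 lower genes (16.4%) and 1206 of 10423 tested genes (11.6%). The core ROR element was found in 5 of the 72 higher genes (6.94%), 2 of the 67 lower genes (2.99%) and 2.54% of tested genes. A match is a run of letters and not a measured binding site.

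Of 20 genes listed as outputs of the liver clock, 7 were higher at 16:00 and 0 lower, and in control females 8 were higher and 0 lower. This list was drawn up with earlier results of these data known, so its counts are a description. Over all tested genes 0.661% were higher and 0.592% lower in misaligned females, and 2.05% and 1.88% in control females. In misaligned females the median of the 20 log2 differences was 0.25, against 0.01 over all tested genes. Chka (ENSMUSG00000024843, chr19:3851773-3894369), choline kinase alpha and the first step of phosphatidylcholine synthesis from choline, was at 42.0, 27.6 and 23.3 CPM at 04:00 and at 172, 159 and 174 CPM at 16:00. The log2 difference was 2.44 ± 0.27 (adjusted p = 3.38e-06), with every 16:00 liver above every 04:00 liver. Slc16a1, the monocarboxylate transporter for lactate and ketone bodies, rose from 41.7, 39.7 and 36.2 CPM to 97.5, 93.1 and 135 CPM (log2 difference 1.47 ± 0.18, adjusted p = 1.15e-05). Leo1, a subunit of the PAF1 transcription elongation complex, rose from 9.52, 9.34 and 9.50 CPM to 23.3, 23.2 and 25.5 CPM (log2 difference 1.34 ± 0.19, adjusted p = 1.18e-04). For these 3 genes the groups of 3 livers did not overlap. Lonrf3 was low at 04:00, at 0.414, 0.399 and 0.594 CPM, and reached 3.78, 3.85 and 2.62 CPM at 16:00 (log2 difference 2.84 ± 0.42, adjusted p = 1.35e-04). Tars, threonyl-tRNA synthetase, rose from 102, 107 and 74.9 CPM to 174, 199 and 158 CPM (adjusted p = 0.00201). Tubb2a, a beta tubulin, went from 104, 62.5 and 50.1 CPM to 329, 278 and 326 CPM (log2 difference 2.10 ± 0.50, adjusted p = 0.0318). Cdkn1a, for the cell cycle inhibitor p21, went from 7.04, 4.87 and 7.55 CPM to 58.6, 78.3 and 66.0 CPM, a log2 difference of 3.38 ± 0.66 (adjusted p = 0.00704). Tubb2a was not called without replicate 2 or 3 at 04:00 or without any 1 of the 16:00 replicates (adjusted p over the alternatives 0.00224 to 0.17). Cdkn1a was not called without replicate 2 at 04:00 (adjusted p over the alternatives 1.74e-05 to 0.0783).

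Other genes rose at 16:00 that are on none of the clock lists. Lgalsl, a galectin-like protein, rose from 14.5, 13.7 and 13.0 CPM to 44.3, 52.8 and 41.9 CPM (log2 difference 1.76 ± 0.17, adjusted p = 1.09e-07). Ppard, the nuclear receptor PPAR delta, rose from 8.11, 7.90 and 7.63 CPM to 50.2, 43.3 and 46.1 CPM (log2 difference 2.56 ± 0.32, adjusted p = 1.71e-05). Lingo4 and Neu3, a membrane sialidase, were low at 04:00, at 0.497, 1.04 and 1.19 CPM and 0.828, 2.40 and 1.36 CPM, and reached 5.84, 9.72 and 3.17 CPM and 6.53, 6.83 and 5.47 CPM at 16:00. Their log2 differences were 2.77 ± 0.48 and 2.03 ± 0.36. Abtb2 and Gfod1 rose by 1.82 ± 0.34 and 1.84 ± 0.39 on the log2 scale, and Gfod1 was not called without replicate 2 or 3 at 04:00 (adjusted p over the alternatives 5.52e-04 to 0.0787). Clpx, the unfoldase of the mitochondrial ClpXP protease, rose from 150.1, 90.9 and 80.8 CPM to 304, 312 and 314 CPM (log2 difference 1.53 ± 0.25, adjusted p = 7.75e-04). It was the only 1 of 14 mitochondrial chaperones and proteases to pass the test.

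Beyond the clock, the largest falls between 04:00 and 16:00 were in genes of several functions. Slc5a6, the transporter of biotin and pantothenate, was at 19.6, 21.4 and 29.4 CPM at 04:00 and at 8.25, 7.97 and 9.91 CPM at 16:00 (log2 difference -1.43 ± 0.19, adjusted p = 4.02e-05). Nr3c2, the mineralocorticoid receptor, fell from 14.7, 16.5 and 13.7 CPM to 6.36, 6.04 and 5.87 CPM (log2 difference -1.30 ± 0.26, adjusted p = 0.00525). For both genes the 6 values split cleanly by clock time. Gpcpd1, a glycerophosphocholine phosphodiesterase, fell from 57.9, 89.0 and 59.4 CPM to 18.6, 30.8 and 13.3 CPM (log2 difference -1.72 ± 0.31, adjusted p = 0.00273). Mcm10, a DNA replication factor, fell from 34.5, 36.7 and 27.3 CPM to 10.8, 15.7 and 9.67 CPM (log2 difference -1.45 ± 0.27, adjusted p = 0.00395). Cyp2g1, a cytochrome P450, and Fbxo21, an F-box protein, fell by log2 differences of -2.69 ± 0.63 and -1.77 ± 0.36. Cabcoco1 (-1.48 ± 0.29), the retinol dehydrogenase Rdh9 (-1.38 ± 0.35), the proprotein convertase Pcsk4 (-1.34 ± 0.33) and the calcium sensor Syt1 (-1.31 ± 0.33) fell as well. Slc5a6 and Nr3c2 were called whichever library was left out, as were Gpcpd1 and Mcm10, but Gpcpd1 (adjusted p over the alternatives 7.99e-06 to 0.139) and Mcm10 (5.93e-05 to 0.127) were lost with all 72 libraries, and Gpcpd1 also on the 6 libraries alone. Cyp2g1 was lost without replicate 2 at 04:00 or any 1 of the 16:00 replicates (adjusted p over the alternatives 3.92e-04 to 0.274), and its log2 difference was -1.89 without replicate 2 at 04:00. Fbxo21 was lost without replicate 2 at 04:00 or replicate 1 at 16:00 (6.25e-05 to 0.0744). Cabcoco1 was lost without replicate 2 at 04:00 or replicate 3 at 16:00 (7.18e-04 to 0.0757). Rdh9 (0.00686 to 0.187) and Syt1 (0.00956 to 0.187) lost the call whichever of the 6 libraries was left out, and Pcsk4 (0.00691 to 0.195) kept it only without replicate 1 at 16:00.

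Few genes of lipid and energy metabolism passed the test. Pdk4, the kinase that shuts off pyruvate dehydrogenase in fasting, rose from 17.0, 10.5 and 13.2 CPM to 62.0, 53.5 and 32.3 CPM (log2 difference 1.86 ± 0.33, adjusted p = 0.00223). Cpt1a, the gate of mitochondrial fatty acid oxidation, moved the opposite way, from 472, 442 and 584 CPM to 321, 272 and 300.4 CPM (log2 difference -0.74 ± 0.17, adjusted p = 0.0168). These were the only 2 of 30 tested PPAR alpha and fasting targets that passed. Ppara itself was at 46.4, 38.1 and 42.6 CPM at 04:00 and at 11.9, 14.2 and 13.5 CPM at 16:00. Its groups did not overlap, yet it did not pass in the fit over all female groups (log2 difference -1.68 ± 0.65, adjusted p = 0.295). It was called when the 18 misaligned female libraries or the 6 compared libraries were fitted alone (adjusted p over the alternatives 3.29e-04 to 0.551). Of 20 tested lipases and lipid droplet proteins, Plin5, a droplet coat protein, rose and Pnpla2, the lipase ATGL, fell. Plin5 went from 35.4, 30.7 and 32.0 CPM to 73.6, 77.7 and 67.4 CPM (log2 difference 1.16 ± 0.28, adjusted p = 0.0328), and Pnpla2 from 59.9, 72.1 and 59.2 CPM to 43.9, 36.7 and 35.7 CPM (log2 difference -0.72 ± 0.17, adjusted p = 0.0279). Insig2, which holds the SREBP complex in the endoplasmic reticulum, rose from 230.4, 153 and 155 CPM to 434, 449 and 410.2 CPM (log2 difference 1.26 ± 0.29, adjusted p = 0.0239). It was the only 1 of 11 regulators of SREBP, LXR and ChREBP to pass. Plin5 lost its call whichever of the 6 libraries was left out (0.00219 to 0.198). Pnpla2 kept its call only without replicate 1 at 16:00 (0.00911 to 0.21), and Insig2 only without replicate 1 at 04:00 (0.00156 to 0.153). Cpt1a was lost without replicate 3 at 04:00 or replicate 2 or 3 at 16:00 (0.00182 to 0.124).

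In the pathways downstream of these regulators few or no single genes passed. Of 25 cholesterol synthesis genes 0 passed, with a median log2 difference of 0.415 and 20 of 25 above 0. Of 18 fatty acid synthesis and desaturation genes 0 passed, with a median of 0.633 and 15 above 0. The smallest adjusted p in these lists were 0.467 and 0.578. The groups did not overlap in 1 of the 25 (4.0%) and 1 of the 18 (5.56%), against 16.2% of all tested genes, and the signs are a description. Over all tested genes the median was 0.006, and 7413 of 14522 were above 0. A gene that did not pass may still have changed. In glucose metabolism, 0 of 16 gluconeogenesis genes and 0 of 20 genes of glycolysis and its regulators passed. The groups did not overlap in 1 of the 16 (6.25%) and 7 of the 20 (35.0%), against 16.2% of all tested genes. G6pc, glucose-6-phosphatase, was at 457, 471 and 262 CPM and 737, 852 and 955 CPM (adjusted p = 0.353). Ppp1r3b, the subunit that brings phosphatase 1 to glycogen in liver, rose from 215, 167 and 216 CPM to 508, 718 and 511 CPM (log2 difference 1.54 ± 0.27, adjusted p = 0.00201). Phka2, the liver subunit of phosphorylase kinase, fell by a log2 difference of -0.68 ± 0.15 (adjusted p = 0.0126), and these were 2 of 18 glycogen genes. Igfbp1 varied within 16:00, at 219, 280.0 and 54.4 CPM against 55.2, 55.3 and 41.2 CPM at 04:00, and did not pass (adjusted p = 0.377). In bile acid synthesis, Klb, the co-receptor for FGF15 and FGF21 signals, fell from 34.9, 33.2 and 27.6 CPM to 20.3, 21.4 and 17.99 CPM (log2 difference -0.68 ± 0.16, adjusted p = 0.0229) and was 1 of 20. Phka2 was lost without replicate 2 at 04:00 or replicate 1 or 3 at 16:00 (0.00179 to 0.119), and Klb without any 1 library but replicate 3 at 04:00 (0.00512 to 0.28).

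Of 25 tested transporters of nutrients, 5 changed (20.0%, against 1.25% of all tested genes). The members were chosen with earlier results of these data known, so the share is a description. Slc16a1 and Slc45a3 rose, the latter from 25.5, 25.4 and 29.4 CPM to 76.2, 87.2 and 63.4 CPM (log2 difference 1.497 ± 0.25, adjusted p = 9.89e-04). Slc5a6, Slc2a9 and Slc38a3 fell. Slc2a9, the urate transporter, went from 60.6, 74.0 and 64.4 CPM to 37.7, 43.9 and 39.6 CPM (log2 difference -0.71 ± 0.13, adjusted p = 0.00201). Slc38a3, a glutamine transporter that lies outside the rule for named genes and was added after its values were seen, went from 1751, 2549.6 and 1962 CPM to 973, 1295 and 637 CPM (log2 difference -1.11 ± 0.20, adjusted p = 0.00201). It was not called on the 6 libraries alone (adjusted p over the alternatives 1.43e-05 to 0.129). Gsta3, a glutathione transferase and 1 of 34 antioxidant genes, rose (0.63 ± 0.15, adjusted p = 0.0282, 0.00268 to 0.226 over the alternatives) and Aox3, an aldehyde oxidase and 1 of 24 genes of NAD synthesis and related enzymes, fell (-0.94 ± 0.24, adjusted p = 0.0417, 0.00902 to 0.222 over the alternatives). Aox3 lost its call whichever of the 6 libraries was left out, and Gsta3 was called only when replicate 3 of either clock time was the one left out. No gene passed among 35 of the unfolded protein response, 40 of ribosome biogenesis, 45 ribosomal proteins, 31 proteasome subunits, 27 of the respiratory chain and ATP synthase, or 37 of interferon response and antigen processing, whose list medians lay between -0.025 and 0.09. Pericentral hepatocyte markers stood lower at 16:00 as a sum, 9214 to 9886 CPM against 10530 to 16570 CPM at 04:00, and 0 of the 10 passed. Glul, glutamine synthetase, was at 1483, 1170.4 and 1453 CPM and 839, 786 and 1094 CPM (adjusted p = 0.156), and Oat, ornithine aminotransferase, at 1152, 469 and 1331 CPM and 453, 660.3 and 368 CPM (adjusted p = 0.127). The values of Oat overlapped between the clock times. The summed periportal markers overlapped, at 6513 to 8731 CPM at 04:00 and 5178 to 10570 CPM at 16:00, and 0 of 10 passed. Whether the lower pericentral sum had a part in the genes above was not tested.

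**Figure D2:**
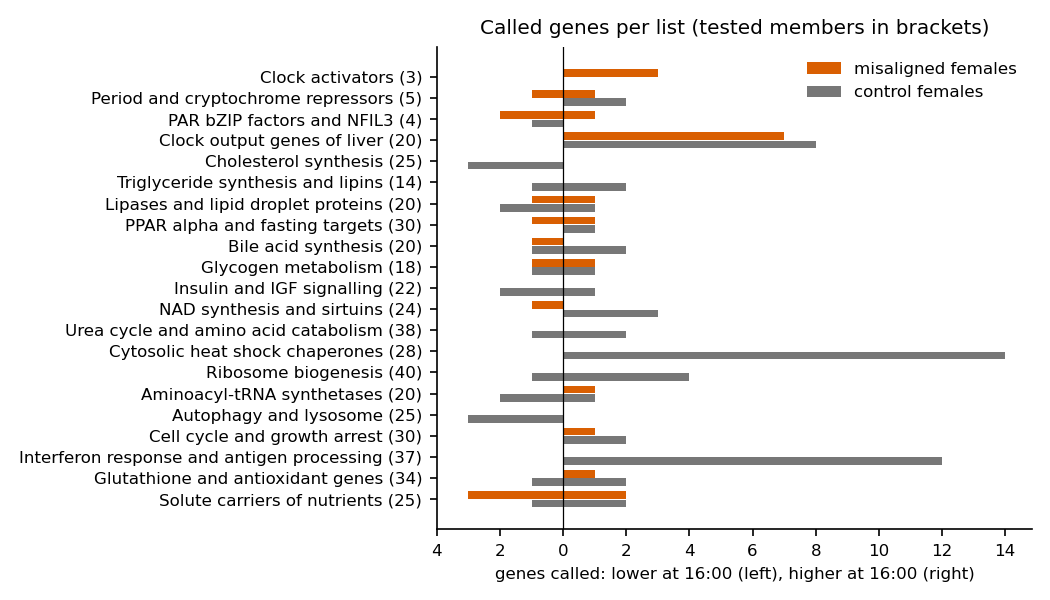
Number of genes called lower (left of 0) and higher (right of 0) at 16:00 per list, in misaligned females (orange) and control females (grey), for lists with 3 or more calls in the 2 sets together (2 such lists are not shown); tested members are in brackets. Misaligned females had 3 of 3 clock activators, 7 of 20 clock outputs and 0 of 28 heat shock chaperones called higher, where control females had 0, 8 and 14. Of the 28 chaperones, 26 had a log2 difference above 0 in misaligned females.

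The same interval was then read in control females. In controls, 571 genes changed between 04:00 and 16:00 (3.93% of those tested), 298 higher (2.05%) and 273 lower (1.88%). In all, 45 genes were called in both, 24.7% of the misaligned calls and 7.88% of the control calls, and 44 of the 45 had the same sign. Cry1, Nr1d1, Nr1d2 and Dbp were among the genes called in both. For the 96 genes higher at 16:00 in misaligned females the median log2 difference was 1.03, against 0.33 in controls, and for the 86 lower genes it was -0.93 against -0.45. These medians rest on genes chosen for their change in misaligned females and are given as a description.

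The test of the difference between the 2 sets called 58 genes (0.399%), 32 with a larger value in misaligned females (0.22%) and 26 with a smaller one (0.179%), and 1422 had an unadjusted p under 0.05. Npas2 had the smallest p. In controls it was at 3.53, 5.29 and 2.55 CPM at 04:00 and at 0.968, 3.92 and 3.59 CPM at 16:00, so it was low at both clock times where misaligned livers were low at 04:00 but not at 16:00. The difference between the 2 log2 differences was 4.47 ± 0.55 (adjusted p = 9.48e-05). Arntl in controls was at 10.8, 17.4 and 7.19 CPM and 14.4, 24.7 and 17.5 CPM, and its difference from misaligned females was 2.94 ± 0.57 (adjusted p = 0.013). Clock differed by 0.90 ± 0.19 (adjusted p = 0.0249), so all 3 activators had a larger difference in misaligned females. Tef in controls went upward, from 96.8, 82.9 and 97.2 CPM to 146, 145 and 138 CPM, while it fell in misaligned females (difference -1.93 ± 0.27, adjusted p = 3.67e-04). Per3, Ciart and Hlf also took opposite signs, with log2 differences of 0.36, 1.29 and 0.54 in controls and -1.91, -2.58 and -0.48 in misaligned females (adjusted p of the difference 0.0249, 0.0305 and 0.0361). Cry1, Nr1d1, Nr1d2 and Dbp did not pass this test. Dbp was at 54.9, 18.5 and 30.5 CPM and 7.98, 5.97 and 4.45 CPM in controls, with a difference of -2.56 ± 0.72 (adjusted p = 0.151).

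**Figure D3:**
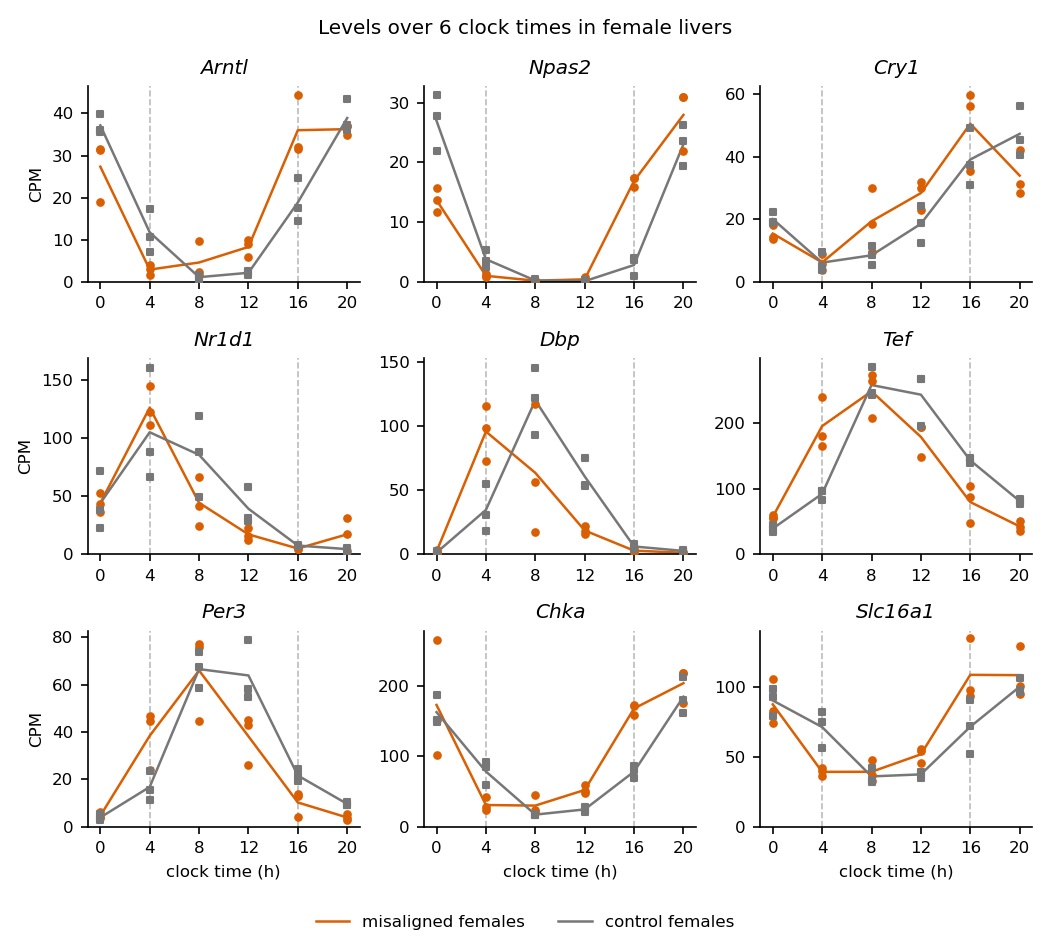
CPM of 9 genes at 6 clock times in misaligned (orange circles) and control (grey squares) females; each symbol is 1 liver, each line joins the means of 3, and dashed lines mark 04:00 and 16:00. Arntl, Npas2, Chka and Slc16a1 had a higher mean at 16:00 in misaligned than in control livers, and Dbp, Tef and Per3 had a higher mean at 04:00.

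The levels at the other 4 clock times place these 2 points on the daily curve. Of the 96 genes higher at 16:00, 41 had their highest mean in misaligned females at 16:00 and 45 at 20:00, and 72 had their lowest at 04:00. In control females 63 of the 96 were highest at 20:00 and 14 at 16:00, and 61 were lowest at 08:00. Of the 86 genes lower at 16:00, 72 were highest at 04:00 in misaligned females, while 57 were highest at 08:00 in controls. The genes were chosen for being high at one of these clock times, so the misaligned counts partly follow from the choice. The mean of Dbp in misaligned females was 95.6 CPM at 04:00 and 63.5 CPM at 08:00, and in controls it was 34.6 CPM and 120.0 CPM.

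Of the 20 clock output genes, 10 differed between the 2 sets, where 0.399% of all tested genes did. The list was drawn up with earlier results of these data known, so the comparison is a description. Chka did not pass in controls, at 91.9, 85.1 and 58.9 CPM and 68.7, 86.2 and 80.6 CPM (difference 2.44 ± 0.37, adjusted p = 0.00157). Slc16a1 did not pass there either, at 74.8, 82.1 and 56.5 CPM and 51.8, 71.7 and 90.7 CPM (difference 1.46 ± 0.26, adjusted p = 0.00554). Leo1 (1.22 ± 0.27) and Tars (0.99 ± 0.23) made 4 that were called in misaligned females and not in controls. The other 6 had a smaller log2 difference in misaligned females than in controls. Marveld1 was at 26.8, 31.0 and 45.0 CPM and 39.6, 32.9 and 30.7 CPM in misaligned females and at 20.4, 24.1 and 22.01 CPM and 57.4, 55.3 and 63.7 CPM in controls (difference -1.40 ± 0.20, adjusted p = 3.67e-04). Alas1, the first enzyme of heme synthesis, ranged widely in misaligned livers, at 209, 429.7 and 978 CPM and 263, 183 and 602 CPM, and in controls went from 159, 182 and 217 CPM to 989, 566 and 1075 CPM (difference -2.86 ± 0.62, adjusted p = 0.0305). Wee1, the kinase that holds cells before mitosis, rose in controls by 1.36 on the log2 scale and was at -0.54 in misaligned females (adjusted p of the difference 0.0198). Por, the electron donor of cytochromes P450, differed by -1.77 ± 0.40. Nampt, the rate-limiting enzyme of NAD salvage, differed by -1.12 ± 0.21, and the deubiquitinase Usp2 by -3.40 ± 0.63. Nampt and Usp2 lie outside the rule for named genes and complete the count.

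Further genes that differed from controls came from several pathways. Lgalsl, Clpx and Pdk4 differed by 1.38 ± 0.23, 1.61 ± 0.35 and 2.22 ± 0.46, each with a larger log2 difference in misaligned females. Hmgcs1, which makes the precursor of mevalonate, fell in controls (-1.17 ± 0.26) and stood at 0.48 ± 0.25 in misaligned females (adjusted p of the difference 0.0305), and it was the only 1 of the 25 cholesterol synthesis genes to differ. Cyp2a5, a cytochrome P450, the endothelial lipase gene Lipg, the nicotinamide riboside kinase gene Nmrk1 and Mpzl1 differed by -2.34 ± 0.53, -2.21 ± 0.51, -1.04 ± 0.23 and 1.71 ± 0.31. In controls 14 of 28 chaperones and 12 of 37 interferon and antigen processing genes were called higher, where 2.05% of all tested genes were. In misaligned females 0 of either list were called higher, yet 0 of them differed between the sets (smallest adjusted p 0.312 and 0.0799). Of the 28 chaperones, 26 had a log2 difference above 0 in misaligned females, with a median of 0.294 against 0.725 in controls. The groups did not overlap in 10 of the 28 (35.7%, against 16.2% of all tested genes). Of the 37 interferon and antigen processing genes, 24 were above 0, with a median of 0.087 against 0.574 in controls. Hsp90aa1 was at 133, 107 and 212 CPM and 277, 336 and 342 CPM in misaligned females, without overlap, and at 115, 127 and 133 CPM and 194, 367 and 418 CPM in controls (difference -0.30 ± 0.46, adjusted p = 0.87). Fkbp4, a co-chaperone of HSP90, came nearest to a call of the 28 in misaligned females (0.61 ± 0.16, adjusted p = 0.0598, 0.0198 to 0.348 over the alternatives).

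The count of 58 depended on which libraries were fitted. It was 49, 64 and 12 without misaligned replicate 1, 2 or 3 at 04:00 and 39, 40 and 41 without misaligned replicate 1, 2 or 3 at 16:00. It was 48, 30 and 38 without control replicate 1, 2 or 3 at 04:00 and 36, 36 and 60 without control replicate 1, 2 or 3 at 16:00. With all 72 libraries it was 8, and with the 12 compared libraries alone it was 6. Npas2, Tef, Chka, Slc16a1, Lgalsl, Marveld1 and Mpzl1 were called whichever single library was left out, and each was lost with all 72 libraries or with the 12 compared libraries alone. The 18 other genes named in this comparison were lost without at least 1 library. Arntl was lost without misaligned replicate 3 at 04:00 or control replicate 2 at 04:00 (adjusted p over the alternatives 1.89e-04 to 0.189). Clock was lost without misaligned replicate 2 or 3 at 04:00, misaligned replicate 2 or 3 at 16:00, control replicate 2 at 04:00 or control replicate 1 or 2 at 16:00 (adjusted p over the alternatives 0.0035 to 0.166). Per3 was lost without misaligned replicate 2 or 3 at 04:00, misaligned replicate 3 at 16:00, control replicate 1 or 2 at 04:00 or control replicate 1 or 3 at 16:00 (adjusted p over the alternatives 9.11e-04 to 0.246). Ciart was lost without misaligned replicate 3 at 04:00, misaligned replicate 1 or 3 at 16:00, control replicate 1, 2 or 3 at 04:00 or control replicate 1, 2 or 3 at 16:00 (adjusted p over the alternatives 4.41e-04 to 0.206). Hlf was lost without misaligned replicate 1, 2 or 3 at 04:00, misaligned replicate 1 or 2 at 16:00, control replicate 2 or 3 at 04:00 or control replicate 1, 2 or 3 at 16:00 (adjusted p over the alternatives 0.00613 to 0.162). Wee1 was lost without misaligned replicate 3 at 04:00, misaligned replicate 3 at 16:00 or control replicate 2 at 04:00 (adjusted p over the alternatives 8.55e-04 to 0.192). Nampt was lost without misaligned replicate 3 at 04:00 (adjusted p over the alternatives 2.63e-04 to 0.242). Usp2 was lost without misaligned replicate 3 at 04:00 (adjusted p over the alternatives 1.89e-04 to 0.109). Alas1, Clpx, Cyp2a5, Hmgcs1, Leo1, Lipg, Nmrk1, Pdk4, Por and Tars were each lost without misaligned replicate 3 at 04:00, and in all without 7 to 11 of the 12 compared libraries one at a time. Their highest adjusted p over the alternatives lay between 0.166 and 0.314. The difference from controls was -2.12 for Alas1 and -2.88 for Ciart without misaligned replicate 3 at 04:00, -3.51 for Alas1 without misaligned replicate 3 at 16:00 and -4.53 for Ciart without misaligned replicate 2 at 16:00.

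Misaligned males were compared at the same clock times. Between 04:00 and 16:00, 0 of 15066 genes were called in them by edgeR, 0% of those tested, while 898 had an unadjusted p under 0.05. DESeq2 called 12 and limma-voom 0. Cry1 came nearest with edgeR, at an adjusted p of 0.208. The 3 males taken at 04:00 differed among themselves. Arntl was at 23.5, 2.36 and 28.7 CPM in them, and at 2.64, 3.00 and 2.01 CPM in the 3 males at 16:00. Replicate 2 at 04:00 was thus low, like the 16:00 males, and replicates 1 and 3 were high. Dbp was at 4.98, 82.8 and 4.45 CPM at 04:00 and at 79.7, 59.8 and 122 CPM at 16:00, and Nr1d1 at 3.76, 97.6 and 11.1 CPM and 75.5, 63.5 and 84.3 CPM. For both, replicate 2 at 04:00 was high, like the 16:00 males, and the other 2 were low. A wrong time or animal label and spread among mice cannot be told apart here, and the male values are given with the labels as they stand. Without this liver, an alternative chosen after seeing the data, 73 genes were called in males (0.476%), 21 higher at 16:00 and 52 lower, and the log2 difference was -3.35 for Arntl and 3.32 for Nr1d1. The count was 0 without each of the other 5 males in turn.

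The test of the difference between the sexes called 182 genes (1.21% of 15066), 116 with a larger value in females (0.77%) and 66 with a smaller one (0.438%). With total counts in place of TMM factors the split was 49.5% larger against 63.7%, and the median over all genes moved to -0.135. Of the 182 genes called in misaligned females, 115 differed from misaligned males. They were chosen for their change in the same female livers that enter this test, so the 115 partly follow from the choice. Of the 96 higher genes 3 had a positive log2 difference in males, and of the 86 lower genes 13 had a negative one. The male median was -0.634 for the 96 and 0.271 for the 86, against -0.003 over all tested genes. These male values include the 04:00 livers that differed among themselves. Arntl was 3.62 in females and -2.82 ± 0.66 in males (difference 6.43 ± 0.93, adjusted p = 3.63e-05), and Cry1, with the smallest p, was 3.02 and -2.38 ± 0.51 (difference 5.40 ± 0.73, adjusted p = 1.57e-05). Npas2 differed by 7.45 ± 1.29, Nfil3 by 3.24 ± 0.57 and Clock by 1.25 ± 0.24, all with a positive log2 difference in females and a negative one in males. Dbp and Nr1d1 took the opposite signs, with log2 differences of 1.498 ± 0.73 and 0.99 ± 0.67 in males (adjusted p of the difference 6.42e-04 and 0.00106). In all, 12 of the 21 clock genes differed between the sexes. Of the genes named above, 37 did so, each with opposite signs in females and males. Chka, Ppard, Lgalsl, Lonrf3 and Zbtb21, all higher at 16:00 in females, differed by 4.22, 4.07, 2.71, 4.72 and 1.67. Ppp1r3b differed by 2.85 ± 0.57, Slc45a3 by 2.58 ± 0.50 and Slc5a6 by -2.48 ± 0.47. The count moved with single livers. It was 60, 446 and 66 without male replicate 1, 2 or 3 at 04:00 and 114, 177 and 105 without male replicate 1, 2 or 3 at 16:00. It was 129, 83 and 174 without female replicate 1, 2 or 3 at 04:00 and 106, 114 and 148 without female replicate 1, 2 or 3 at 16:00. On the 12 compared libraries alone it was 0, while 1197 genes had an unadjusted p under 0.05. Each of the 37 named genes was lost there, and 19 of them were called whichever single library was left out. Npas2 was lost without male replicate 3 at 04:00 (1.42e-05 to 0.103). Ciart was lost without female replicate 3 at 04:00, female replicate 1 or 3 at 16:00, or male replicate 3 at either clock time (0.00425 to 0.148). Per3 was lost without female replicate 2 at 04:00, female replicate 3 at 16:00, male replicate 1 or 3 at 04:00 or male replicate 3 at 16:00 (0.00522 to 0.305). Tef was lost without replicate 3 of the females at either clock time, male replicate 1 or 3 at 04:00 or male replicate 3 at 16:00 (0.00763 to 0.2). Ppp1r3b (3.90e-05 to 0.24) and Tars (0.00101 to 0.0955) were lost without male replicate 1 at 04:00. Gfod1 was lost without female replicate 2 or male replicate 1 at 04:00 or male replicate 1 at 16:00 (0.00361 to 0.102), and Insig2 without female replicate 2 or male replicate 3 at 04:00 or male replicate 3 at 16:00 (0.00278 to 0.0834). Neu3 was lost without female replicate 1 or male replicate 1 or 3 at 04:00 or male replicate 3 at 16:00 (5.86e-04 to 0.284). Cdkn1a, Fbxo21, Fkbp4, Gsta3, Hsp90aa1, Nr3c2, Pdk4, Phka2 and Plin5 were each lost without 6 to 11 of the 12 compared libraries one at a time, and their highest adjusted p over the alternatives lay between 0.175 and 0.377. The sizes moved with single livers as well. Without male replicate 2 at 04:00 the difference was -9.24 for Dbp, -7.96 for Nr1d1, -3.92 for Nr1d2, -3.23 for Slc5a6 and -2.81 for Fbxo21. It was 5.29 for Npas2 and 3.67 for Cdkn1a without male replicate 3 at 04:00, and 8.67 and 5.37 without male replicate 2 at 16:00. Ppp1r3b stood at 2.00 without male replicate 1 at 04:00, and Ciart at -3.21 without female replicate 3 at 04:00 and -4.87 without female replicate 2 at 16:00.

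**Figure D4:**
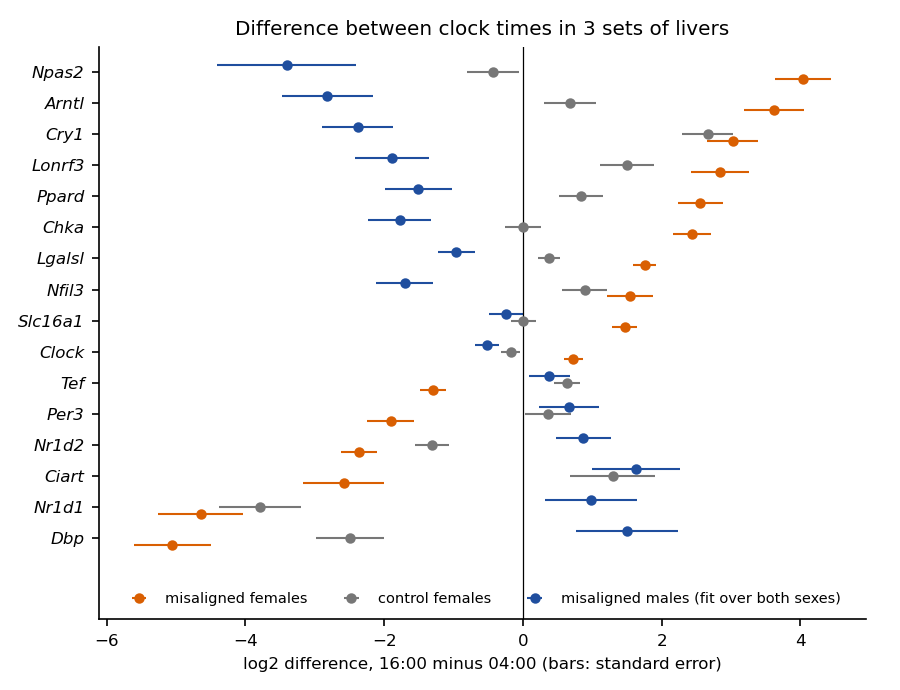
Log2 difference between 16:00 and 04:00 for 16 genes in misaligned females (orange), control females (grey) and misaligned males (blue); bars are standard errors of the fit, n = 3 against 3 in each set. From Npas2 to Clock the misaligned females lie right of 0 and the males left of it, and for Nr1d1 and Dbp the females lie left of 0 and the males right of it.

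Intron reads, which come mostly from RNA not yet spliced, gave a further readout of the same livers. Of 10504 genes with enough intron counts, 53 were called (0.505%), 34 higher at 16:00 (0.324%) and 19 lower (0.181%), with 861 at an unadjusted p under 0.05. Of the 182 genes called from gene counts, 160 had an intron value. The sign was the same in 153 of the 160, and 31 were called in introns, all with the same sign. The 160 were chosen for their change in these same libraries, so the shared sign partly follows from the choice. The intron log2 difference was 3.27 ± 0.43 for Arntl, 3.35 ± 0.61 for Npas2 and 3.19 ± 0.39 for Cry1, and -5.71 ± 0.71 for Dbp and -4.69 ± 0.61 for Nr1d1. All 5 have the sign of their gene counts and were called in introns. Rdh9 and Slc5a6 had intron differences of -3.38 ± 0.75 and -2.44 ± 0.47, and Clpx of 2.31 ± 0.32. Cry1 had the smallest adjusted p in introns, 1.66e-05. For Tef (-1.43 ± 0.71) and Per3 (-2.16 ± 0.55) the sign was that of the gene counts and the introns did not pass. Nfil3, Gsta3 and Clock had intron differences of 0.16 ± 0.44, -0.19 ± 0.20 and 0.25 ± 0.50, none of which passed. Hsp90aa1, which did not pass in gene counts, was called in introns (1.15 ± 0.27, adjusted p = 0.0395). The 6 libraries held 1006446 to 1016503 intron counts each, and the median standard error was 0.40 against 0.216 for gene counts. The intron calls numbered 26, 25 and 31 without replicate 1, 2 or 3 at 04:00 and 24, 42 and 22 without replicate 1, 2 or 3 at 16:00.

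**Figure D5:**
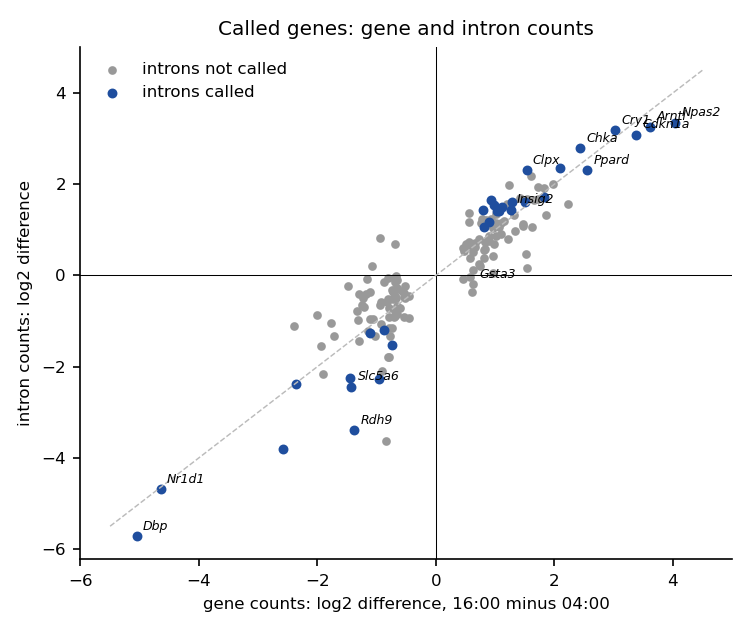
Log2 difference between 16:00 and 04:00 from intron counts against that from gene counts, for the 160 called genes with an intron value; blue points are called in introns as well, and the dashed line marks equality. The 31 blue points all lie in the quadrants of equal sign, with Dbp and Nr1d1 at the lower left and Npas2, Arntl and Cry1 at the upper right.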

How the data were processed

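Liver RNA of 72 mice was measured, and the 6 misaligned female libraries at 04:00 and 16:00 were compared. The deposited tables hold whole-number read counts per gene, sense and antisense, and per intron. Per the submitters' processing notes, STAR 2.6.0c and GRCm38 were used; how multiply mapped reads were counted is not given in the sources used here. The smaller of the 2 deposited sense gene count tables (MIN) was used as deposited, with the larger (MAX) as an alternative, and intron counts were summed per gene.

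Counts were tested with edgeR 4.0.16 in R 4.3.3 (TMM factors, filterByExpr, robust quasi-likelihood fit, Benjamini-Hochberg adjustment over all genes tested, 0.05). The fit held all 36 female libraries in 12 groups of 3, leaving 24 residual degrees of freedom, and the comparison with males held all 72. Males were left out of the female fit because earlier work on these data had found clock genes far more scattered in misaligned males. That choice was thus made with earlier results known. With all 72 libraries fitted, 117 genes were called in misaligned females in place of 182. Alternatives used DESeq2 1.42.0, limma-voom 3.58.1, other scalings and filters, other sets of libraries and each library left out. Those within males were chosen after seeing the data. The scripts were tested on simulated data. The labels do not say whether replicate numbers pair mice. Each p-value weighs a difference against the spread among mice within all groups of the fit, not only the compared ones. The deposited gene counts came to 11551524 to 12529963 per library and the intron counts to 1000985 to 1016503. Whether these totals had been evened before deposit was not tested.

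The named genes were the clock lists, the 15 largest called differences in each direction (mean of at least 2 CPM, no overlap), up to 4 genes of smallest p in each list and the 8 of smallest p in each test of a difference. Predicted genes were left out, and a few genes are not reported here. Members and lists were chosen with earlier results of these data known. Positions come from GENCODE vM21 and promoters from RefSeq, both GRCm38.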

Additional observations from a re-analysis of the deposited data

Results flagged for a closer look

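The change from 04:00 to 16:00 differed between misaligned and control females in edgeR's test of the difference itself for 25 of the named genes. The values below are the log2 difference in misaligned females minus that in controls, with 3 livers in each of the 4 groups. Those with a larger log2 difference in misaligned females were Npas2 4.47, Chka 2.44, Lgalsl 1.38, Slc16a1 1.46, Mpzl1 1.71, Arntl 2.94, Clock 0.902, Pdk4 2.22, Clpx 1.61, Leo1 1.22, Tars 0.99 and Hmgcs1 1.65. Those with a smaller one were Tef -1.93, Marveld1 -1.4, Per3 -2.27, Ciart -3.87, Hlf -1.02, Wee1 -1.9, Alas1 -2.86, Por -1.77, Cyp2a5 -2.34, Nmrk1 -1.04, Lipg -2.21, Nampt -1.12 and Usp2 -3.4.

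The same change differed between misaligned females and misaligned males for 37 of the named genes. As log2 difference in females minus that in males, the values above 0 were Npas2 7.45, Arntl 6.43, Cry1 5.4, Lonrf3 4.72, Ppard 4.07, Chka 4.22, Lgalsl 2.71, Nfil3 3.24, Slc16a1 1.71, Clock 1.25, Zbtb21 1.67, Cdkn1a 4.74, Lingo4 4.91, Neu3 2.52, Pdk4 2.33, Gfod1 2.52, Abtb2 2.89, Leo1 2.04, Tars 1.43, Insig2 1.71, Plin5 2.01, Ppp1r3b 2.85, Clpx 2.6, Gsta3 1.1, Slc45a3 2.58, Hsp90aa1 1.81 and Fkbp4 1.15. Those below 0 were Tef -1.68, Per3 -2.58, Nr1d2 -3.24, Ciart -4.22, Nr1d1 -5.63, Dbp -6.55, Fbxo21 -2.01, Slc5a6 -2.48, Nr3c2 -1.58 and Phka2 -0.866. The misaligned females at 04:00 and 16:00 enter both comparisons, so the 2 sets of values share libraries. The 3 males at 04:00 differed among themselves, and their part in the second comparison is given by the values without each of them above.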

How the results depend on the processing

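With DESeq2, 132 genes were called lower at 16:00 in misaligned females (86 in the test as reported), 65 higher and 59 lower than in controls (32 and 26), 101 lower than in males (66), and 55 higher and 31 lower in introns (34 and 19). With all 72 libraries fitted, the counts were 51 lower in misaligned females, 3 higher and 5 lower against controls, and 16 higher and 7 lower in introns. Fitted on the compared libraries alone, they were 56 higher and 39 lower in misaligned females, 6 and 0 against controls, and 0 and 0 against males. With no filter they were 21 and 15 against controls, 21 lower against males, and 109 and 84 in introns, and with limma-voom 12 were lower in introns. Leaving out 1 library gave 42 to 77 higher and 30 to 71 lower in misaligned females, 8 to 36 higher and 4 to 29 lower against controls, 51 to 253 higher and 9 to 193 lower against males, and 18 to 25 higher and 2 to 17 lower in introns. The replicate block gave 159 calls in misaligned females, 158 of them shared, with Rdh9, Pcsk4 and Syt1 lost among named genes, and 55, 173 and 53 in the other tests, with Tars lost against controls. The deviations of same-numbered livers from their group means correlated at 0.0765, -0.00268 and 0.0470. Other pairs of a 04:00 and a 16:00 liver correlated at -0.118 to 0.0617. With 3 livers per group these values cannot settle whether the numbers pair mice. Of 50 called genes named, 24 kept their call in every alternative that tested them (16 or 17 of 17), and 30 did so with any 1 library left out. Of the others, all 72 libraries also lost Bhlhe41, Ciart, Cdkn1a, Cyp2g1, Gpcpd1, Mcm10, Pcsk4, Syt1, Plin5, Pnpla2, Klb, Aox3 and Gsta3, and the 18 misaligned female libraries lost Ciart, Nfil3, Cdkn1a, Cyp2g1, Rdh9, Pcsk4, Syt1, Insig2, Plin5, Pnpla2, Aox3 and Gsta3. The 6 alone lost Clock, Per3, Ciart, Tef, Nfil3, Cyp2g1, Gpcpd1, Cabcoco1, Pcsk4, Pnpla2, Cpt1a, Klb, Phka2, Aox3, Gsta3 and Slc38a3. No filter lost Ciart, Tubb2a, Cyp2g1, Rdh9, Pcsk4, Syt1, Insig2, Plin5 and Aox3, limma-voom Ciart, Cyp2g1 and Rdh9, and MAX counts Tubb2a and Rdh9. Against males, no filter lost Tef, Per3, Cdkn1a, Pdk4, Fbxo21, Nr3c2, Plin5, Hsp90aa1 and Fkbp4, limma-voom lost Ciart, Cdkn1a, Lingo4, Neu3, Pdk4 and Plin5, and MAX counts and total counts lost Pdk4 and Plin5. As log2 differences against males, limma-voom gave 5.81 for Arntl, 4.76 for Cry1, 4.13 for Lingo4, 6.61 for Npas2, -7.83 for Dbp and -6.81 for Nr1d1. Within males, DESeq2 called 1 higher and 11 lower (0 and 0), and leaving out 1 library gave 0 to 21 higher and 0 to 52 lower. Directions reversed for genes that were not called: with 1 library left out, the log2 difference ran from -0.134 to 0.256 for Marveld1 (-0.0435 with total counts), from -0.0278 to 0.560 for Per2, from -0.0593 to 0.478 for Cry2, from -0.0646 to 0.346 for Bhlhe40, from -1.26 to 0.129 for Alas1 and from -0.82 to 0.126 for Usp2. The causes were not tested. The deposited totals were even across libraries, and low genes such as Bhlhe41 rest on few counts.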
